A study of Mus musculus with 12 samples.

Results

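The mouse DNA methyltransferases and TET dioxygenases were followed in neutrophils by messenger RNA sequencing. The genes Dnmt1, Dnmt3a, Dnmt3b, Dnmt3l, Tet1, Tet2 and Tet3 were taken by symbol from a count table of 23621 symbols, and all 7 had a row. They were chosen by family with the fold changes and calls of all 3 comparisons already known, so their fold changes and calls below are a description and support nothing further. Low-density neutrophils (LDN) and their high-density counterparts (HDN) came from the peripheral blood of mice carrying liver metastases in a breast cancer study. Naive neutrophils came from bone marrow. Each group had 4 libraries, and the animals of all groups were Balb/c females of 8 weeks. The labels name no genotype, tumour line or pooling of animals, and do not say whether libraries came from separate animals, so the spread between them may be technical.

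DNA methyltransferases add a methyl group to cytosine, mostly where a guanine follows (CpG). DNMT1, brought to newly copied DNA by UHRF1, restores the pattern after replication, while DNMT3A and DNMT3B write it anew. DNMT3L has no catalytic activity and binds the DNMT3 enzymes as a cofactor, chiefly in germ cells. TET1, TET2 and TET3 use oxygen, iron and 2-oxoglutarate to oxidise the methyl group, which opens the way to its removal. Loss of Dnmt3a or Tet2 in mouse blood stem cells favours their self-renewal and skews the myeloid lineage.

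The libraries held 23181686 to 26456768 counts in LDN, 20049857 to 30044508 in HDN and 18113922 to 27741885 in Naive. Levels are given as CPM, the read count of a gene relative to a library size scaled by TMM, the trimmed mean of M values. A gene was called where edgeR's quasi-likelihood test, fitted over 10604 genes, gave an adjusted p under 0.05. HDN library 7 had the largest TMM factor, 1.28. HDN libraries 4 and 7 were the most distant replicates, at 193 in chi-square per gene. Both also stood apart from HDN libraries 3 and 5, library 4 by 110 and 142 and library 7 by 103 and 159. HDN libraries 3 and 5 differed by 20.3. The LDN and HDN libraries carried a date-like tag in their column names that the Naive libraries lacked. Tissue, tumour and any batch behind that tag therefore cannot be told apart in comparisons with Naive. Calls over all genes split into 2761 higher and 2153 lower in LDN against HDN, 3177 and 3167 in HDN against Naive, and 2910 and 2840 in LDN against Naive. When the 20 most abundant genes were kept out of the library sizes, the splits were 2250 and 2764, 2504 and 3661, and 1866 and 3954, in the same order of comparisons. That scaling moved the median log2 fold change of all genes to -0.12, -0.11 and -0.27, against 0.02, 0.04 and 0.01.

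The family did not move as a unit. In LDN against HDN, Dnmt1 and Dnmt3l were called higher, Tet2 and Tet3 lower, and Dnmt3a and Dnmt3b were not called. The background was high, with 46.3% of all tested genes called in that comparison. In HDN against Naive, Tet2 was called higher and 5 members lower, where 59.8% of all genes were called. In LDN against Naive, Dnmt3l was called higher, Dnmt1, Dnmt3a, Dnmt3b and Tet3 lower, and Tet2 was not called, where 54.2% of all genes were called. The libraries did not overlap for 3 members in LDN against HDN, for 6 in HDN against Naive and for 4 in LDN against Naive. Over all tested genes they did not overlap for 39.2%, 53.3% and 55.3% in the same comparisons. The median log2 fold change of the 6 tested members was -0.01 in LDN against HDN, -1.82 in HDN against Naive and -0.80 in LDN against Naive. Tet1 passed no filter on low counts in any group. Dnmt3b passed it through the Naive libraries alone, and Dnmt3l through LDN and Naive, so their differences from the groups below the filter were in part set by it.

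**Figure D1:**
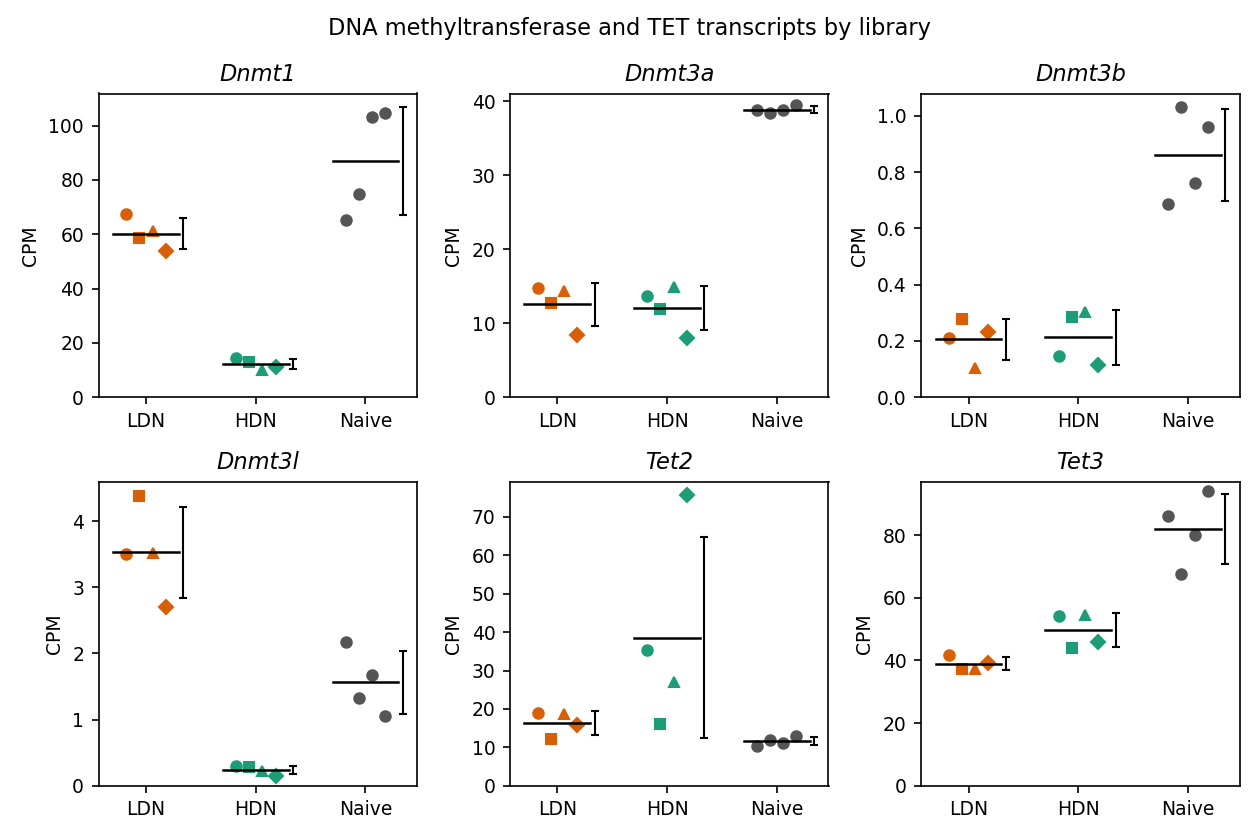
CPM of the 6 members past the low-count filter in each library, with the group mean (line) and SD (bar), n = 4 a group; marker shapes stand for the replicate numbers 3, 4, 5 and 7 shared by LDN and HDN. Dnmt1 and Dnmt3l were high in LDN and low in HDN, Dnmt3a and Dnmt3b were high in Naive alone, and the highest Tet2 value, 75.8 CPM, was that of HDN library 7.

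Dnmt1, the maintenance enzyme, was close to its bone marrow level in LDN and low in HDN. It had 67.4, 58.6, 61.0 and 53.7 CPM in LDN, 14.6, 12.8, 10.1 and 11.2 CPM in HDN, and 65.1, 74.8, 103 and 105 CPM in Naive. The LDN and Naive ranges touched, since the highest LDN library passed the lowest Naive library, and every HDN library lay far below both. The log2 fold changes were 2.31 ± 0.18 (SE) in LDN against HDN, -2.83 ± 0.18 in HDN against Naive and -0.53 ± 0.17 in LDN against Naive. The difference between the same-numbered LDN and HDN libraries was nearly constant, at 2.20, 2.18, 2.58 and 2.26 on the log2 scale. The smaller difference from Naive was no longer called without Naive library 3 (-0.44, adjusted p = 0.0580) or Naive library 4 (-0.43, adjusted p = 0.0582), and was -0.83 when the 20 most abundant genes were kept out of the library sizes.

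Dnmt1 lies at chr9:20907209-20959888 on the minus strand of GRCm38. Uhrf1 was a partner called in the same direction in all 3 comparisons, as was the partner Cdca7, whose windows are not shown. Promoter windows of Dnmt1 and Uhrf1, from 250 bases before to 50 after a RefSeq start (GRCm38.p6), are given here. The Dnmt1 window is chr9:20952574-20952873 on the minus strand and the Uhrf1 window is chr17:56304063-56304362 on the plus strand. Capitals mark matches on either strand to TTTCGCGC, TTTCCCGC, TTTGGCGC or TTTGCCGC, forms of the motif bound by E2F factors, which drive genes of S phase.
Dnmt1: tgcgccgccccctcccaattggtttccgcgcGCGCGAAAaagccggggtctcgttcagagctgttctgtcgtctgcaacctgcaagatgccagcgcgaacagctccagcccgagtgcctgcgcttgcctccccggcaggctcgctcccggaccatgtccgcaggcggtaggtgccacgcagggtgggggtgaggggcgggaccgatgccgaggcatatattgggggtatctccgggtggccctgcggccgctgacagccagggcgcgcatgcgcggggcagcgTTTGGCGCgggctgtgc
Uhrf1: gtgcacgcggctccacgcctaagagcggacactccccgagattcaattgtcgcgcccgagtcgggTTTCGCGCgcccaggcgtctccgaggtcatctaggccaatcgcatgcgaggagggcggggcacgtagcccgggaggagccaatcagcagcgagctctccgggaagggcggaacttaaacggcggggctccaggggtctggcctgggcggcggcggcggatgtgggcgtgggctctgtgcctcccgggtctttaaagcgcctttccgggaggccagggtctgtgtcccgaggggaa
The Dnmt1 window held 2 matches, at -219 on the reverse strand and at 33 on the forward strand, counted from 0 at the start. The Uhrf1 window held 1, at -185 on the forward strand. Of 32851 windows of the same length, 2.26% held at least 1 match. Dnmt1 has 3 RefSeq starts and its windows at the other starts held no match. The other Uhrf1 window, chr17:56303087-56303386, held none either. Those printed for these genes were the windows with a match, so the share over all windows does not measure how unusual they are. Which start these cells used was not measured. A match is a string of letters and says nothing on binding.

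Uhrf1, which recruits DNMT1 to replicated DNA, averaged 5.39 ± 1.74 CPM in LDN, 0.29 ± 0.10 CPM in HDN and 43.1 ± 12.9 CPM in Naive (SD, n = 4 each). It was higher in LDN than in HDN (log2 fold change 4.21 ± 0.36, adjusted p = 1.78e-06) and lower in LDN than in Naive (-2.99 ± 0.28, adjusted p = 1.27e-06). In LDN against Naive the log2 fold change of Dnmt1, -0.53, was thus smaller in size than that of Uhrf1; the difference between the genes was not tested. Mki67, a marker of dividing cells, averaged 4.45 ± 0.89 CPM in LDN, 0.33 ± 0.17 CPM in HDN and 49.5 ± 12.6 CPM in Naive, close to the Uhrf1 pattern. Of the 12 listed S phase and division genes, 10 were called higher and none lower in LDN against HDN, and 11 were called lower in LDN against Naive. Over all tested genes, 26% were called higher and 20.3% lower in LDN against HDN, and 27.4% and 26.8% in LDN against Naive. The counts of the cell marker lists below stand beside these shares. The summed level of the S phase and division genes ran over 82.5 to 141 CPM in LDN, 37.8 to 40.8 CPM in HDN and 381 to 622 CPM in Naive.

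**Figure D2:**
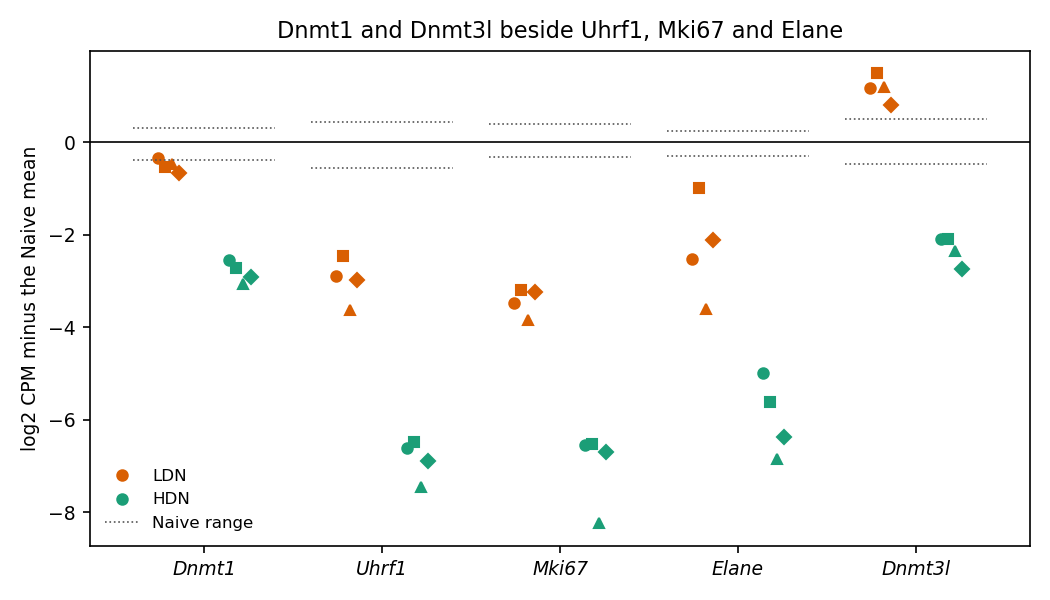
log2 CPM of each LDN and HDN library minus the mean of the 4 Naive libraries, for Dnmt1, Uhrf1, Mki67, the precursor granule gene Elane and Dnmt3l; dotted lines give the Naive range and marker shapes the replicate numbers. Dnmt1 in LDN lay 0.34 to 0.66 below the Naive mean and Dnmt3l in LDN above the whole Naive range, while Uhrf1, Mki67 and Elane in LDN lay below theirs. Of the 9 precursor genes, 6 including Elane were called lower in LDN than in Naive and 2, Prtn3 and Cd34, higher.

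Several marker lists of other cells had the group order of Dnmt1, which was not that of Dnmt3l, Tet2 or Tet3. The 9 granulocyte precursor genes with a row, such as Elane, which encodes neutrophil elastase, were all called higher in LDN than in HDN. Their summed level was 141 to 240 CPM in LDN, 31.9 to 56.1 CPM in HDN and 484 to 588 CPM in Naive. B cell and pro-B cell markers summed to 1.30 to 6.74 CPM in LDN, 0.382 to 2.17 CPM in HDN and 17.0 to 47.9 CPM in Naive. T and NK cell markers summed to 34.2 to 49.2 CPM in LDN, 3.51 to 18.5 CPM in HDN, where Klrb1c was at 0, and 196 to 270 CPM in Naive. That sum was mostly Cd3d, at 34.7 CPM in LDN, 8.11 CPM in HDN and 214 CPM in Naive on average. Of the 5 tested T and NK genes 3 were called lower in LDN than in Naive and 2, Cd3e and Cd4, higher. Platelet markers summed to 28.4 to 33.7 CPM in LDN, 9.43 to 11.5 CPM in HDN and 113 to 124 CPM in Naive. Itgb3 made up most of it, at 26.5 CPM in LDN, 3.54 CPM in HDN and 113 CPM in Naive on average. Itga2b ran the other way, called lower in LDN than in HDN (-1.56) and higher in HDN than in Naive (1.40). In those 4 sums, as in the S phase list, all LDN libraries lay below all Naive libraries. They also lay above all HDN libraries, except that the B cell ranges of LDN and HDN overlapped. The part of these lists and of those below in the members' differences was not tested. Monocyte markers summed to 330 to 448 CPM in LDN, 297 to 576 CPM in HDN and 625 to 834 CPM in Naive. Their genes differed in direction, with Ly6c2 called lower (-2.49) and Fn1 higher (4.37) in LDN against Naive. Eosinophil and basophil markers summed to 14.2 to 23.6 CPM in LDN, 40.5 to 86.3 CPM in HDN and 15.5 to 65.5 CPM in Naive. Siglecf, at 17.6 CPM in LDN, 63.1 CPM in HDN and 9.80 CPM in Naive on average, had the order of Tet2, while Epx was at 0 in HDN. Dendritic cell markers summed to at most 22.2 CPM in any library, and the haemoglobin genes were at 0 in all. The neutrophil markers themselves were abundant everywhere, at 187648 to 247046 CPM in LDN, 76954 to 126912 CPM in HDN and 196661 to 229224 CPM in Naive. In these bulk libraries fewer expressing cells and less RNA per cell cannot be told apart.

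Dnmt3a, the main de novo enzyme of blood cells, was low in both blood groups. It had 14.8, 12.7, 14.3 and 8.43 CPM in LDN, 13.7, 11.9, 14.8 and 8.01 CPM in HDN, and 38.9, 38.4, 38.8 and 39.5 CPM in Naive. All 8 blood libraries lay below all 4 Naive libraries, which were nearly identical, and the number 7 library was the lowest of its group in both LDN and HDN. The log2 fold changes were 0.05 ± 0.20 in LDN against HDN, -1.68 ± 0.20 in HDN against Naive and -1.63 ± 0.20 in LDN against Naive. Between same-numbered libraries the LDN minus HDN difference was 0.12, 0.09, -0.05 and 0.07. By group means Dnmt1 and Dnmt3a had the same order, Naive over LDN over HDN. The gap fell in different places: LDN overlapped Naive for Dnmt1 and HDN for Dnmt3a.

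Dnmt3b, the other de novo enzyme, was scarce. It had 5, 6, 2 and 5 reads in LDN, 3, 9, 8 and 3 reads in HDN, and 18, 28, 15 and 19 reads in Naive. In level this was 0.102 to 0.277 CPM in LDN, 0.114 to 0.305 CPM in HDN and 0.688 to 1.03 CPM in Naive, with Naive apart from both blood groups. The log2 fold changes were -0.07 ± 0.42 in LDN against HDN, -1.96 ± 0.35 in HDN against Naive and -2.03 ± 0.37 in LDN against Naive. At so few reads a difference between LDN and HDN was not detectable unless large.

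Dnmt3l, the cofactor without catalytic activity, was the member with the widest difference between the blood groups. It had 3.51, 4.38, 3.52 and 2.70 CPM in LDN, 0.291, 0.286, 0.228 and 0.153 CPM in HDN, and 2.18, 1.33, 1.68 and 1.06 CPM in Naive. These rest on 58 to 95 reads in LDN, 4 to 9 in HDN and 21 to 57 in Naive. The 3 groups did not overlap, and all LDN libraries lay above all Naive libraries, which held for no other member. The log2 fold changes were 3.85 ± 0.31 in LDN against HDN, -2.69 ± 0.32 in HDN against Naive and 1.17 ± 0.26 in LDN against Naive. The LDN minus HDN difference between same-numbered libraries was 3.26, 3.59, 3.53 and 3.55. Of the S phase list none of the 12 genes was called higher in LDN than in Naive. Of the 9 precursor genes 6 were called lower and 2 higher, Prtn3 (1.21 ± 0.25) and Cd34 (1.92 ± 0.26). Prtn3, at 44.6 CPM in LDN, 12.5 CPM in HDN and 19.3 CPM in Naive on average, had the group order of Dnmt3l.

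Dnmt3l lies at chr10:78041947-78063622 on the plus strand of GRCm38, where it overlaps the antisense gene Aire, which had 0 reads in all libraries. Its promoter window at chr10:78042037-78042336, plus strand, is given to set it beside that of Dnmt1; no base is in capitals because no motif match was found.
Dnmt3l: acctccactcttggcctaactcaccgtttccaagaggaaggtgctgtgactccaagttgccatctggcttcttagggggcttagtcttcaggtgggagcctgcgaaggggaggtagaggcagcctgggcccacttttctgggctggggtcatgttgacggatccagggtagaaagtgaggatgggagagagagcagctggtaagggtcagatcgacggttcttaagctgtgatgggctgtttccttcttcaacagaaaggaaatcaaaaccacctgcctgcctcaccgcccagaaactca
This window held 6 CpG sites and those at the other RefSeq starts of Dnmt3l held 4 and 3. The Dnmt1 window printed above held 33 and the Tet2 window 57, against a median of 7 and quartiles of 3 and 20 over all windows. The windows of Dnmt3a held 46, 47 and 18 CpG sites, that of Dnmt3b 30, that of Tet3 22 and that of Tet1 17. Methylation of these sites was not measured. None of the windows of Dnmt3a, Dnmt3b, Dnmt3l, Tet1, Tet2 or Tet3 held a motif match, so its absence was not particular to Dnmt3l.

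Tet2 had the opposite order to Dnmt1, highest in HDN. It had 18.9, 12.1, 18.6 and 15.8 CPM in LDN, 35.4, 16.0, 27.1 and 75.8 CPM in HDN, and 10.4, 11.9, 11.0 and 12.9 CPM in Naive. HDN library 7 was far above the rest, and HDN library 4 lay within the LDN range, so LDN and HDN overlapped while HDN and Naive did not. The log2 fold changes were -1.24 ± 0.36 in LDN against HDN, 1.74 ± 0.36 in HDN against Naive and 0.50 ± 0.36, not called, in LDN against Naive. Without HDN library 7 they were -0.67 in LDN against HDN, still called, and 1.18 in HDN against Naive. Tet2 was nevertheless lower in LDN in each of the same-numbered pairs, by log2 differences of -0.90, -0.40, -0.54 and -2.25. In LDN against Naive it was called when the fit held the libraries of that comparison alone (0.49, adjusted p = 0.0280).

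Tet3 had the smallest span of fold changes among the tested members. It had 41.8, 37.4, 37.3 and 39.2 CPM in LDN, 54.3, 44.0, 54.6 and 46.0 CPM in HDN, and 86.2, 67.6, 80.1 and 94.1 CPM in Naive. The groups did not overlap and ran from Naive over HDN to LDN, so Tet3 was the single member whose LDN libraries all lay below both other groups. The log2 fold changes were -0.35 ± 0.12 in LDN against HDN, -0.72 ± 0.12 in HDN against Naive and -1.08 ± 0.12 in LDN against Naive. The difference between LDN and HDN was no longer called without HDN library 3 (-0.31, adjusted p = 0.0901) or HDN library 5 (-0.30, adjusted p = 0.0881).

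Tet1 was at the limit of detection. It had 0, 0, 1 and 0 reads in LDN, none in HDN, and 3, 1, 1 and 7 reads in Naive. Against the 12 Naive reads, taken as exact, the HDN level was at least 4.51-fold lower, from a floor of 3 reads over the group. This bound leaves out the counting error of the Naive reads and the spread between libraries. Naive library 4 held 7 of those reads, and without it the bound was 2.39-fold. The ratio of the LDN to the Naive level was 0.0891 (95% exact interval 0.00209 to 0.602, counting error only). In the authors' deposited table the log2 fold change of Tet1 was -2.67 in HDN against Naive, with an adjusted p of 0.0237. The authors' deposited table gave -2.17 in LDN against Naive, with an adjusted p of 0.0812.

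**Figure D3:**
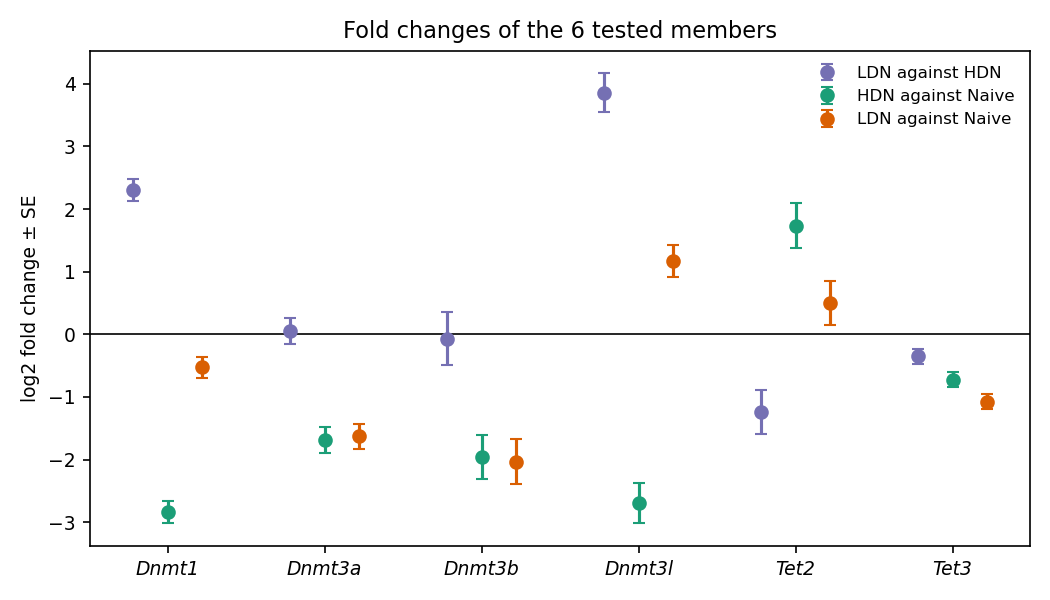
log2 fold change with its SE from edgeR for the 6 tested members in LDN against HDN, HDN against Naive and LDN against Naive; each pair of comparisons shares a group, so the points are not independent. Dnmt1 at 2.31 and Dnmt3l at 3.85 lie far above 0 in LDN against HDN, and Tet2 at 1.74 is the single member above 0 in HDN against Naive.

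Set against each other per kilobase of exon, the members stood in different proportions to each other in the 3 groups. Dnmt1 led the methyltransferases throughout, with 8.16 ± 0.77 CPM per kilobase in LDN, 1.65 ± 0.26 in HDN and 11.8 ± 2.71 in Naive (SD, n = 4 each). Dnmt3a stood at 0.755 ± 0.174 CPM per kilobase in LDN, 0.727 ± 0.179 in HDN and 2.34 ± 0.03 in Naive. Dnmt1 made up 91.2% ± 1.18 of the summed level of Dnmt1, Dnmt3a and Dnmt3b in LDN, 68.3% ± 6.70 in HDN and 82.0% ± 3.39 in Naive. The 3 groups did not overlap in that share, which was 90.4 to 93.0% in LDN, 59.1 to 75.05% in HDN and 78.1 to 84.9% in Naive.

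Dnmt3l over Dnmt3a, both per kilobase, was 1.60 ± 0.30 in LDN, 0.111 ± 0.020 in HDN and 0.224 ± 0.070 in Naive. In LDN the cofactor transcript thus exceeded that of Dnmt3a in every library, with a lowest ratio of 1.32, and in HDN and Naive it never passed 0.312. The lengths of the principal transcripts in place of all exons gave 1.54, 0.107 and 0.215 for the same groups. Tet2 made up 29.2% ± 3.80 of the summed level of Tet2 and Tet3 in LDN, 40.1% ± 15.5 in HDN and 12.4% ± 1.77 in Naive. Both blood groups lay above Naive, at 24.2 to 33.1% in LDN and 26.4 to 62.0% in HDN, against 10.7 to 14.8% in Naive. The summed level of Dnmt1, Dnmt3a and Dnmt3b over that of Tet1, Tet2 and Tet3 was 2.72 ± 0.24 in LDN, 0.496 ± 0.174 in HDN and 2.56 ± 0.44 in Naive. By that ratio methyltransferase transcripts exceeded TET transcripts in all LDN and Naive libraries, and the reverse held in all HDN libraries. With the principal transcript lengths the ratio was 1.52 in LDN, 0.304 in HDN and 1.38 in Naive, with a lowest Naive value of 1.05.

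**Figure D4:**
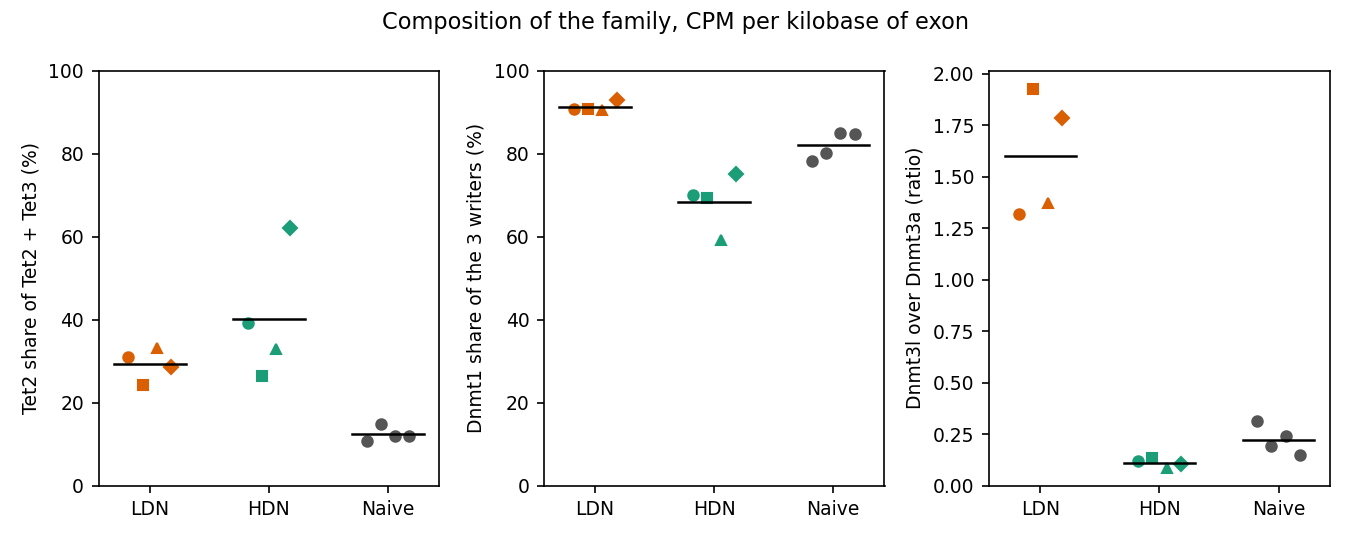
Tet2 as a share of Tet2 and Tet3 (left), Dnmt1 as a share of the writers Dnmt1, Dnmt3a and Dnmt3b (middle) and Dnmt3l over Dnmt3a (right), from CPM per kilobase of exon; points are libraries and lines group means. The Dnmt3l ratio was 1.32 to 1.92 in LDN, 0.0857 to 0.134 in HDN and 0.150 to 0.312 in Naive, without overlap.

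Partners of maintenance methylation did not share 1 direction. Of 9 tested partners, 4 were called higher and 2 lower in LDN against HDN, 1 higher and 6 lower in HDN against Naive, and 1 higher and 6 lower in LDN against Naive. Their median log2 fold changes were 0.23, -0.58 and -0.42 in those comparisons. Over all tested genes 26% were called higher and 20.3% lower in LDN against HDN. The shares were 30% and 29.9% in HDN against Naive, and 27.4% and 26.8% in LDN against Naive. The counts of this list and of the lists below stand beside these shares. Cdca7, which activates the remodeller that opens chromatin for maintenance methylation, averaged 5.89 ± 0.35 CPM in LDN, 3.42 ± 0.27 CPM in HDN and 45.4 ± 6.52 CPM in Naive. It was higher in LDN than in HDN (0.78 ± 0.14, adjusted p = 0.000611) and lower in LDN than in Naive (-2.95 ± 0.14, adjusted p = 3.24e-09). Usp7, a deubiquitinase that binds DNMT1 and UHRF1, ran the other way, lower in LDN than in HDN (-0.77 ± 0.21, adjusted p = 0.00816) and higher in HDN than in Naive (1.58 ± 0.21, adjusted p = 1.99e-05). Pcna, the replication clamp, was lower in LDN than in Naive (-1.23 ± 0.18, adjusted p = 5.63e-05), as was the deacetylase gene Hdac2 (-1.01 ± 0.20, adjusted p = 0.000782).

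Genes listed as readers of methylated CpG moved in both directions. Of 8 tested, 1 was called higher and 2 lower in LDN against HDN, 3 higher and 1 lower in HDN against Naive, and 2 of each in LDN against Naive, with median log2 fold changes of -0.24, 0.47 and -0.04. The reader called higher in LDN than in HDN was Mbd2 (0.32 ± 0.12, adjusted p = 0.0465). It was not called with RLE scaling, with DESeq2, without the low-count filter or with most single libraries left out, at adjusted p-values up to 0.195. Mbd2 was abundant, at 566 ± 44.4 CPM in LDN, 453 ± 71.4 CPM in HDN and 281 ± 12.9 CPM in Naive. Mbd2 was higher than in Naive in both LDN (1.01 ± 0.12, adjusted p = 1.41e-05) and HDN (0.69 ± 0.12, adjusted p = 0.000277). Mbd3, a subunit of the NuRD repressor complex, was lower than in Naive in both LDN (-1.11 ± 0.21, adjusted p = 0.000646) and HDN (-1.42 ± 0.22, adjusted p = 6.65e-05).

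Genes listed for removal of oxidised cytosine and base repair, the Gadd45 genes and Ung among them, were mostly lower in blood than in Naive. Of 12 tested, 5 were called higher and 2 lower in LDN against HDN, none higher and 8 lower in HDN against Naive, and none higher and 9 lower in LDN against Naive. The median log2 fold changes were -0.06, -0.92 and -1.17. Parp1, which binds DNA breaks, averaged 2.70 ± 0.77 CPM in LDN, 0.44 ± 0.24 CPM in HDN and 8.20 ± 3.18 CPM in Naive. It was higher in LDN than in HDN (2.62 ± 0.44, adjusted p = 0.000346), and so were the glycosylase gene Neil3 (2.57 ± 0.45, adjusted p = 0.000460) and the ligase gene Lig3 (1.03 ± 0.16, adjusted p = 0.000170). Gadd45b, a stress-response gene, was lower in LDN than in HDN (-1.52 ± 0.19, adjusted p = 3.99e-05) and lower in LDN than in Naive (-1.73 ± 0.20, adjusted p = 6.56e-06). Tdg, the glycosylase that excises oxidised cytosine, had 0 to 7 reads a library and was not tested; near-identical copies of it in the genome make that count uncertain.

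Of the TET partners, 3 were tested, with 1 called higher and 1 lower in LDN against HDN, and none higher and 1 lower in both HDN against Naive and LDN against Naive. Their median log2 fold changes were -0.39, -0.17 and -0.56. Hcfc1, a chromatin protein bound and cleaved by the glycosyltransferase OGT, averaged 99.4 ± 5.68 CPM in LDN, 41.7 ± 5.53 CPM in HDN and 111 ± 16.5 CPM in Naive. It was higher in LDN than in HDN (1.25 ± 0.13, adjusted p = 8.42e-06) and lower in HDN than in Naive (-1.41 ± 0.13, adjusted p = 6.37e-07). Ogt itself, at 101 ± 39.9 CPM in LDN, 133 ± 57.2 CPM in HDN and 149 ± 15.9 CPM in Naive, was not called in any of the 3 comparisons.

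Genes that supply the methyl donor S-adenosylmethionine were split. Of 12 tested, 3 were called higher and 3 lower in LDN against HDN, 5 and 6 in HDN against Naive, and 3 and 7 in LDN against Naive. In LDN against HDN that was near the shares over all genes, 26% higher and 20.3% lower. The median log2 fold changes were 0.07, -0.42 and -0.88. The mitochondrial folate genes Mthfd2 (1.10 ± 0.16, adjusted p = 0.000133) and Shmt2 (1.10 ± 0.29, adjusted p = 0.00667) were higher in LDN than in HDN. Both were lower in LDN than in Naive, with log2 fold changes of -1.72 ± 0.16 for Mthfd2 (adjusted p = 1.22e-06) and -0.97 ± 0.27 for Shmt2 (adjusted p = 0.00782). Mat2a, which makes S-adenosylmethionine outside the liver, was lower in LDN than in HDN (-0.78 ± 0.21, adjusted p = 0.00846) and lower in LDN than in Naive (-0.79 ± 0.21, adjusted p = 0.00638). Its HDN and Naive levels, 29.2 ± 9.70 and 29.3 ± 6.48 CPM, were not called different.

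Of 15 tested genes around 2-oxoglutarate, the TET cosubstrate, 7 were called higher and 1 lower in LDN against HDN, 5 and 5 in HDN against Naive, and 8 and 3 in LDN against Naive. The median log2 fold changes were 0.23, 0.07 and 0.47. Idh1, which makes 2-oxoglutarate in the cytosol, averaged 117 ± 12.6 CPM in LDN, 48.5 ± 10.9 CPM in HDN and 74.9 ± 6.71 CPM in Naive. It was higher in LDN than in HDN (1.27 ± 0.15, adjusted p = 2.51e-05) and higher in LDN than in Naive (0.65 ± 0.15, adjusted p = 0.00260; 0.35 with the 20 most abundant genes out of the library sizes). The mitochondrial genes Idh2 (1.29 ± 0.22, adjusted p = 0.000368) and Idh3a (1.97 ± 0.28, adjusted p = 8.27e-05) were also higher in LDN than in HDN. Fh1, the fumarase that removes a competitor of 2-oxoglutarate, was higher in LDN than in HDN (1.09 ± 0.24, adjusted p = 0.00246) and lower in LDN than in Naive (-0.77 ± 0.23, adjusted p = 0.0129).

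Other chromatin enzymes that use 2-oxoglutarate gave 2 higher and 6 lower of 17 in LDN against HDN, 5 and 3 in HDN against Naive, and 3 and 3 in LDN against Naive. Their median log2 fold changes were -0.34, 0.11 and -0.23. The RNA demethylase gene Fto was higher in LDN than in HDN (1.27 ± 0.21, adjusted p = 0.000296), while Kdm2b (-1.20 ± 0.22, adjusted p = 0.000752) and Kdm3a (-1.02 ± 0.28, adjusted p = 0.00989), which encode histone demethylases, were lower. Of 17 histone methyltransferase and Polycomb genes, 1 was called higher and 6 lower in LDN against HDN, 3 and 6 in HDN against Naive, and 3 and 10 in LDN against Naive, with medians of -0.31, -0.01 and -0.52. Ehmt2, an H3K9 methyltransferase, was higher in LDN than in HDN, at 44.0 ± 9.34 CPM against 19.7 ± 6.03 CPM (adjusted p = 0.000424). Suz12, a Polycomb subunit, was lower in LDN than in HDN (-1.91 ± 0.39, adjusted p = 0.00141; -1.27 without HDN library 7). Setd2, an H3K36 methyltransferase, was also lower in LDN than in HDN (-0.81 ± 0.23, adjusted p = 0.0120; -0.45 without HDN library 7). Ezh2, the Polycomb methyltransferase of dividing cells, was lower than in Naive in both LDN (-2.28 ± 0.31, adjusted p = 3.26e-05) and HDN (-2.99 ± 0.32, adjusted p = 2.48e-06).

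The genes nearest to each member over the 12 libraries, by root mean square difference of centred log2 CPM among 8196 genes, differed by member. Those of Dnmt1 were Lrmp (0.27), Abcc5, Ticam2, 2700094K13Rik and B230208H11Rik, up to 0.31. Those of Dnmt3a were Arhgap39 (0.20), Zkscan17, Rpia, Ntng2 and Dgat1, and Rpia was also nearest to Dnmt3b (0.28), followed by Gart, Tango6, Arl11 and Ptprv. Dnmt3l had the most distant neighbours, with Lmo1 (0.32), Serpinb1a (0.41), Slc17a9, Mvk and Rph3a (0.47). Those of Tet2 were Ubn2 (0.15), Otud4, Camsap2, Fam179b and Tiparp, and those of Tet3 were Rhno1 (0.15), Atn1, Snrk, Card6 and Usp49. No neighbour was a family member or a listed partner. The 8196 candidates were fewer than the 10604 tested genes, since scarce genes were left out of this search. Dnmt3b, Dnmt3l, Tet1 and scarce partners therefore could not appear, and their absence says nothing on whether they share a pattern with another member.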

How the data were processed

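Poly(A) RNA libraries were made with a stranded kit, per the labels' protocols. The tools named are CASAVA 1.8.2, STAR, Trimmomatic and DESeq2 1.16.1, per the submitters' processing notes. Genome build, annotation and strand setting were not given in the sources used here. The authors deposited raw read counts per gene symbol, and per the file headers their comparison tables hold the mean normalized signal, the log2 fold change, the test score and the p-value of each gene.

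From the counts, edgeR 4.0.16 in R 4.3.3 gave TMM scaling, filterByExpr by group, robust quasi-likelihood fits by group over all 12 libraries, and Benjamini-Hochberg adjusted p-values over 10604 genes. The SE of a log2 fold change is its size divided by the square root of the test's F. Gene lengths, coordinates and overlaps come from GENCODE M21 (GRCm38) and promoters from RefSeq. Without a stated strand setting, reads of a gene and its antisense partner cannot be told apart. A floor of 3 reads equals 0.0954 to 0.153 CPM.

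The members and the 18 lists were chosen with earlier results of these data known. Of 197 list entries, 12 symbols were not analysed here. A called gene of the reader list that the rule would name is not reported here. Beyond all members and Uhrf1, Tdg, Ogt, Mat2a, Idh1, Idh2 and Mki67, up to 4 called genes a list and comparison with the largest fold change and a mean log2 CPM of at least 1 could be named. Deviations of the same-numbered LDN and HDN libraries correlated at 0.385, 0.760, 0.495 and 0.315 across genes, and those of unlike numbers at -0.608 to 0.412. Each LDN library correlated most with the HDN library of its number, but HDN library 3 correlated more with LDN library 5 (0.412) than with LDN library 3. The labels do not say what the numbers stand for. Same-numbered Naive libraries correlated with LDN or HDN at -0.127 to 0.160. The replicate block changed no member call between LDN and HDN. Replicates differed by 3.37 to 193 in chi-square per gene, which is above sampling noise; the pair with the lowest value was Naive 3 and 4, and whether libraries share animals is not given. Alternatives were RLE scaling, library sizes without the 20 most abundant genes, no filter, DESeq2 1.42.0, limma-voom 3.58.1, the replicate block, the libraries of 1 comparison alone, each library left out, and, added after seeing the data, principal transcript lengths and the Tet1 bound without each Naive library. The fit was tested on simulated data.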

Additional observations from a re-analysis of the deposited data

Results flagged for a closer look

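Tet1 in LDN library 5 stood outside its group, at 0.0511 CPM from 1 read where the other LDN libraries had 0. It was the single such value among 39 groups checked over 13 genes, and with the other 3 libraries at 0 any read would have stood out. At this depth 1 read is below the floor of 3.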

How the results depend on the processing

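The total number of called genes in each comparison stayed within 1.5 times under every alternative run, but the higher calls in LDN against Naive numbered 1866, against 2910, with the 20 most abundant genes out of the library sizes. Of the members' values under the alternatives, 326 kept direction and call, 5 lost a call, 1 gained a call and 9 changed sign, all 9 for differences between LDN and HDN that were not called. Dnmt3a in LDN against HDN was -0.07 (-0.0709) with the 20 most abundant genes out of the library sizes and ran from -0.10 to 0.17 with 1 library left out. Dnmt3b in LDN against HDN ran from -0.29 to 0.13 with 1 library left out. With the replicate block, whose numbers do not pair HDN and Naive, Tet2 in HDN against Naive was 1.17 (adjusted p = 0.0528), and no other member call changed. With the principal transcript lengths, Tet2 over Tet3 per kilobase was 0.272 in LDN, 0.511 in HDN and 0.0926 in Naive, against 0.415, 0.782 and 0.141 with all exons. Dnmt1 over Dnmt3a was 8.50 in LDN, 1.81 in HDN and 3.83 in Naive, against 11.2, 2.38 and 5.04. Of the partner genes' values, 1689 kept direction and call and 40 lost the call. Mbd2 in LDN against HDN lost it with RLE scaling (0.27, adjusted p = 0.0806) and under most other settings. Depth limits Tet1, Dnmt3b and the HDN values of Dnmt3l, which rest on few reads. The causes were not tested.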
